A study of Mus musculus with 18 samples.

Results

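In mouse embryonic stem (ES) cells, 975 accessible regions held a peak in every control library of 2 experiments. They lost it both with the topoisomerase inhibitor ICRF-193 and after deletion of Brg1. In cells given tamoxifen to delete Baf53a, 1 or both libraries held a peak there, whether or not their ethanol controls did. The regions were chosen by that pattern in peak lists of ATAC-seq, an assay in which a transposase cuts open DNA, so that accessible sites appear as peaks of reads. Peaks of 18 lists that shared 1 bp or more were merged into 377189 regions. A region was taken when it held a peak in both DMSO 24 h and both Brg1 fl/fl ethanol libraries, in neither ICRF-193 24 h nor Brg1 fl/fl tamoxifen library, and in 1 or both Baf53a fl/- tamoxifen libraries. The 975 regions are 0.259% of all merged regions and 2.3% of the 42384 regions with a peak in the 4 control libraries and in 1 or both Baf53a tamoxifen libraries, called control-shared regions here. Absence of a peak means that the authors' caller listed none there, not that the site was closed.

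Wild-type ES cells had received 1 µM ICRF-193 or DMSO for 24 h (2 libraries each) or for 1 h (3 libraries each). The 1 h groups rest on the sample titles and the study's design text, since the protocol text of every wild-type sample speaks of 24 h. Brg1 fl/fl and Baf53a fl/- ES cells, both with an Actin-CreER transgene that the ethanol controls carry too, were given 0.8 µM tamoxifen, which activates the Cre recombinase, or ethanol for 24 h, followed by 48 h in fresh medium (2 libraries each). All cultures grew on gelatin with serum and LIF, and viable cells were sorted for the assay. By their labels the Baf53a controls already lack 1 allele, though the deposited Baf53a lists are named fl/fl, so the genotype of these controls is uncertain. The replicates are passages of a line, and neither deletion nor any ES cell marker locus was checked here, since no gene annotation of the lists' genome build (mm9) was used. The same limit leaves the regions named by mm9 coordinates alone, without genes and without sequence.

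Topoisomerase II passes one DNA duplex through a cut in another and so removes tangles and torsion, and ICRF-193 blocks its catalytic cycle by holding it as a closed clamp on DNA. BAF is a multi-subunit chromatin remodelling complex that uses ATP to move or evict nucleosomes. Brg1 is its ATPase in ES cells, and Baf53a is an actin-related subunit found also in other chromatin complexes. In ES cells BAF occupies many enhancers and promoters and is needed for self-renewal.

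The lists ran from 46431 to 129880 peaks, and read depth is unknown. The 3 shortest were those of Brg1 tamoxifen replicate 2 (46431 peaks), ICRF-193 1 h replicate 2 (50611) and DMSO 1 h replicate 2 (58532), and the others held 76898 or more. The part of list length in the results below was not tested, except where values from shortened lists are given.

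Losing the peak in both experiments was uncommon among accessible regions and concentrated in weak ones. Of the regions in both DMSO 24 h libraries, 15.5% held no peak in either ICRF-193 24 h library, and of those in both Brg1 ethanol libraries, 23.9% held none in either tamoxifen library. Both percentages use the libraries of the rule and are given as its background. Among the 45634 regions with a peak in all 4 control libraries, whatever their state in Baf53a cells, 3215 (7.05%) were lost with ICRF-193, 7894 (17.3%) after Brg1 deletion and 1471 (3.22%) in both. The shared ones were 45.8% of the ICRF-193 losses and 18.6% of the Brg1 losses, and of the regions not lost after Brg1 deletion 4.62% were lost with ICRF-193. Of the 1471, 975 held a peak in Baf53a tamoxifen cells and 496 held none in either library of these cells. The 2 experiments share no library, and these shares are descriptions of the lists, with no test. The number 975 depends on single libraries, since leaving out a 24 h or Brg1 library loosens the rule and leaving out a Baf53a tamoxifen library tightens it: it was 2217 without ICRF-193 24 h replicate 1, 1690 without DMSO 24 h replicate 1, 1835 without Brg1 tamoxifen replicate 1, 1491 without Brg1 ethanol replicate 2 and 630 without Baf53a tamoxifen replicate 1. Without ICRF-193 24 h replicate 1, ICRF-193 losses made up 39.9% of the Brg1 losses in place of 18.6%.

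Near misses were more numerous than the regions that met the rule. A single peak in 1 of the 4 perturbed libraries kept 2661 control-shared regions outside it. The lone peak lay in ICRF-193 24 h replicate 1 in 1242 of these, in Brg1 tamoxifen replicate 1 in 860, in ICRF-193 24 h replicate 2 in 450 and in Brg1 tamoxifen replicate 2, the shortest list, in 109. Peaks in 2 perturbed libraries were found in 6546 regions, in 3 libraries in 9832 and in all 4 in 22370. The 3 strongest regions just outside were chr8:121047890-121048291, chr17:18092206-18092594 and chr7:92691659-92692047. The first 2 were kept out by a peak at the 82.6 score percentile of Brg1 tamoxifen replicate 1, the last by one at 83.6 in ICRF-193 24 h replicate 1.

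**Figure D1:**
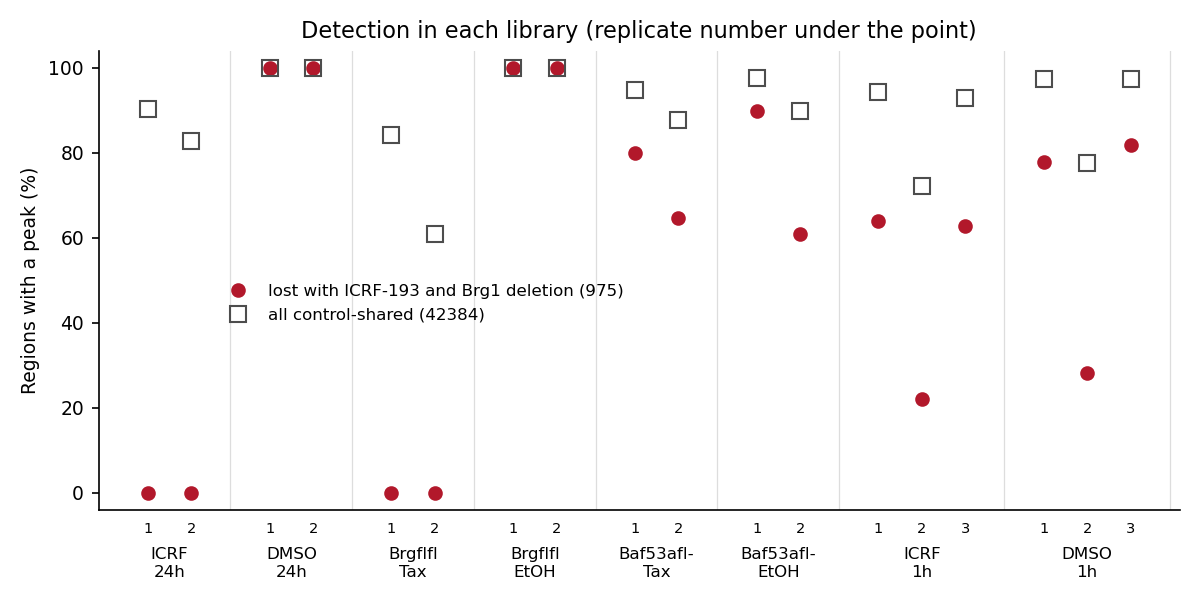
Share of regions with a peak (percent, vertical axis) in each of the 18 libraries, for the 975 regions lost with ICRF-193 and Brg1 deletion (filled circles) and for all 42384 control-shared regions (open squares). The 8 libraries of the 24 h and Brg1 groups are at 0 or 100 for the circles by the rule. In the Baf53a and 1 h libraries, which set no such value, the circles run from 22.1% to 89.7% and lie below the squares in every library.

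Strength was read from the authors' score of each peak, ranked within its own list, where percentile 100 is the highest score of that list. A region's strength is the mean percentile over the 4 control lists. Where a list held several peaks in a region, the highest percentile was taken. The 975 regions had a median strength of 52.1 (quartiles 41.0 and 62.7), against 74.7 (59.7 and 87.7) for control-shared regions and 84.5 for the 22370 kept in all 4 perturbed libraries. In single control lists their median percentile was 48.0 and 59.6 in DMSO 24 h and 61.5 and 49.3 in Brg1 ethanol. That is near the middle of all peaks of a list, control-shared or not. Control-shared regions stood higher in the same lists, at 76.2 and 81.3 in DMSO 24 h and 78.5 and 73.3 in Brg1 ethanol. Regions lost with ICRF-193 but kept in both Brg1 tamoxifen libraries (510 regions) had a median of 54.7, and those lost after Brg1 deletion but kept in both ICRF-193 libraries (3295) one of 65.4. These strengths come from libraries of the rule and describe the regions.

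When control-shared regions were ordered by strength into 5 equal classes, the regions lost in both experiments thinned out towards the strong end. They were 582 of 8479 (6.86%) in the weakest class, 266 of 8475 (3.14%) in the next, 106 of 8476 (1.25%) in the middle one, 21 of 8477 (0.248%) in the next and 0 of 8477 in the strongest. Within each of the first 4 classes, ICRF-193 loss was more frequent among Brg1-lost regions than among the rest of the class: 24.2% against 13.9%, 15.3% against 5.70%, 9.01% against 2.64% and 3.83% against 0.618%, from weak to strong. In the strongest class 0 of 98 Brg1-lost regions and 0.0716% of the others were lost with ICRF-193. These are descriptions, with no test, and regions within a class still differ in strength.

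**Figure D2:**
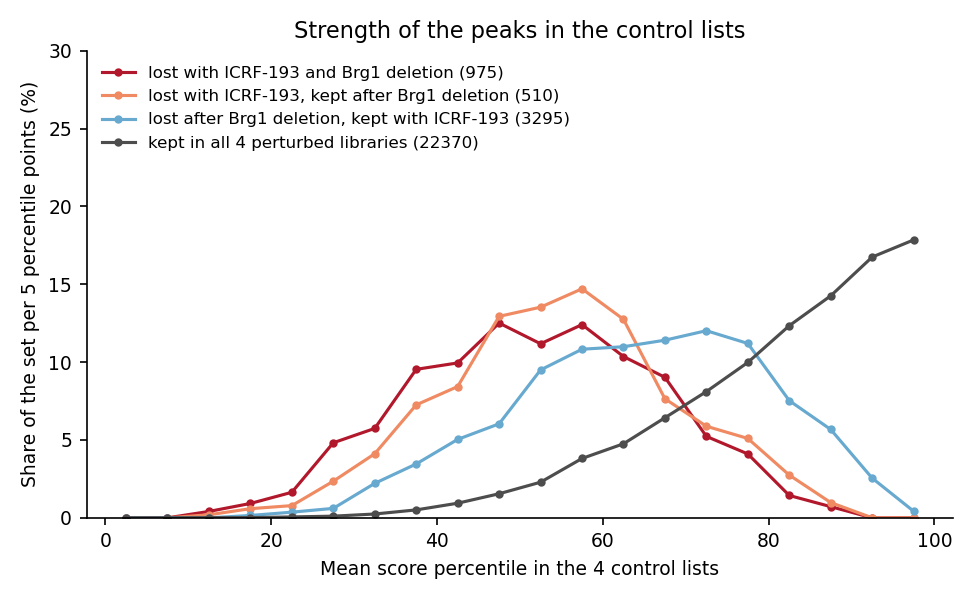
Share of each set of regions (percent per 5 percentile points, vertical axis) by mean score percentile in the 4 control lists (horizontal axis). The regions lost in both experiments and those lost with ICRF-193 alone have medians of 52.1 and 54.7, the regions lost after Brg1 deletion alone 65.4, and the kept regions, which pile up at the strong end, 84.5.

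The regions were narrow. Their median merged width was 439 bp (quartiles 341.5 and 550.5), against 692 bp for control-shared and 853 bp for kept regions. Other lost regions were narrow too, with medians of 499 bp for those lost with ICRF-193 alone and 559 bp after Brg1 deletion alone. The 496 regions lost in both experiments and without a peak in either Baf53a tamoxifen library had a median of 398.5 bp. Of these, 148 (29.8%) held a peak in both Baf53a ethanol libraries, so most were not shown to be lost in that line. Of the 975, 19 (1.95%) reached 1 kb, against 23% of control-shared regions. The merged width takes in peaks of every list, and the regions lack peaks from 4 lists by the rule. The authors' own peaks in the control lists do not have that limit, but the widest was taken where a list held several in a region. The part of that choice in the widths was not tested. In these lists the median peak at the 975 regions measured 185 and 223 bp in DMSO 24 h and 217 and 193 bp in Brg1 ethanol. At kept regions it measured 468, 496, 464 and 447 bp in the same lists. At regions lost with ICRF-193 alone it measured 194.5, 248, 233 and 225.5 bp, close to the set. Narrowness held within strength classes. In the weakest class the mean control peak width had a median of 209 bp at regions lost in both experiments and 294.8 bp at kept regions, in the next 229.4 and 349.1 bp, in the middle one 228.4 and 414.5 bp, and in class 4 320.2 bp over 21 regions and 482.8 bp. Whole classes lay between, at 246, 291, 349.8 and 431 bp from the weakest to class 4. The classes do not match strength fully: in the weakest, median strength was 43.7 at regions lost in both experiments and 49.7 at kept regions. The widest region lay on chr8:5043637-5044915 (1279 bp) and the narrowest on chr2:180659989-180660147 (159 bp).

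A minority of the regions had another peak just beside them, and kept regions had one more often. ICRF-193 24 h libraries held a peak outside the region but within 1 kb of it at 11.0% and 7.59% of the 975 regions, against 10.9% and 14.9% in DMSO 24 h. Brg1 tamoxifen libraries did so at 9.23% and 5.54%, against 15.3% and 11.4% in ethanol. Kept regions had such a peak at 18.3% and 13.6% in ICRF-193 24 h, against 16.9% and 18.4% in DMSO 24 h. In Brg1 tamoxifen they had one at 16.0% and 8.56%, against 16.35% and 15.6% in ethanol. Against the control of the same number, ICRF-193 24 h replicate 1 held adjacent peaks about as often at the 975 regions (11.0% against 10.9%). At kept regions it held them more often (18.3% against 16.9%). The other perturbed libraries held them less often than their numbered controls at the 975 regions. Their lists were shorter than those of these controls, and the part of list length was not tested. The shortest list, Brg1 tamoxifen replicate 2, held the fewest. Merging peaks up to 100 bp apart gave 971 regions in place of 975.

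The 10 strongest of the 975 regions had mean control percentiles from 83.5 to 89.5. The strongest, chr4:63868383-63869001, ranked at 89.6 and 96.6 in DMSO 24 h and at 90.7 and 80.9 in Brg1 ethanol (mean 89.5 ± 6.49, SD, n = 4 control lists). It held a peak in all 14 libraries outside ICRF-193 24 h and Brg1 tamoxifen, at 78.7 and 61.9 in Baf53a tamoxifen, 82.5 and 68.2 in Baf53a ethanol, 87.1, 56.5 and 86.2 in ICRF-193 1 h and 92.0, 74.5 and 93.8 in DMSO 1 h. Ranks from lists of different lengths show no change between libraries. Region chr11:24850979-24851725 (87.0 ± 3.72) and chr4:87616689-87617222 (84.0 ± 1.99) likewise held a peak in all 14 libraries (SD, n = 4). The chromosome 11 region stood at 89.8 and 97.4 in Baf53a tamoxifen and at 52.2 and 76.2 in Baf53a ethanol.

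Other strong regions were missing from further libraries. Region chr14:10159813-10160247 (89.3 ± 5.47) and chr10:16023268-16023659 (89.3 ± 5.49) held peaks in all but the 4 perturbed libraries and the 2 libraries of 1 h replicate 2. Region chr7:59373131-59373516 (88.2 ± 6.41) and chr3:3370799-3371219 (87.2 ± 9.71) were found in every ICRF-193 1 h library and in DMSO 1 h replicates 1 and 3. Their only Baf53a tamoxifen peaks were weak, at percentiles 35.2 and 30.0. The list of 10 was completed by chr3:72831837-72832342 (86.7 ± 17.0), chr7:126180974-126181416 (84.9 ± 7.66) and chr18:72875176-72875677 (83.5 ± 16.1). SDs are over the same 4 control lists. At the other end, the weakest were chr11:114625921-114627036 (10.9 ± 4.16), chr17:27515056-27516007 (11.8 ± 6.15) and chr9:110644511-110645216 (14.3 ± 10.9), with the same n.

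Of the 6 libraries made after 1 h, which the rule did not use, 4 held a peak at most of the 975 regions and the replicate 2 libraries did not. Among ICRF-193 1 h libraries, replicate 1 held a peak at 623 regions (63.9%, exact 95% interval 60.8 to 66.9), replicate 2 at 215 (22.1%, 19.5 to 24.8) and replicate 3 at 613 (62.9%, 59.8 to 65.9). Among DMSO 1 h libraries, replicate 1 held one at 759 (77.8%, 75.1 to 80.4), replicate 2 at 274 (28.1%, 25.3 to 31.0) and replicate 3 at 798 (81.8%, 79.3 to 84.2). The intervals are exact binomial ones and cover counting error over regions only. The group means were 49.6 ± 23.9% with ICRF-193 and 62.6 ± 29.9% with DMSO (SD, n = 3 each), a difference of -13.0 percentage points. The groups overlapped, because both replicate 2 libraries lay far below the others.

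Within each replicate number the ICRF-193 library held fewer of the 975 regions, by -13.9, -6.05 and -19.0 points. No p is given for this share, since the regions were chosen with earlier results known, and an exact unpaired permutation test of 3 against 3 libraries cannot go below a two-sided p of 0.1. Without the 2 libraries of number 2 the means were 63.4% with ICRF-193 and 79.8% with DMSO, a difference of -16.5 points, and the 2 groups no longer overlapped. Leaving out 1 library unbalances the groups: the difference was -20.1 without ICRF-193 replicate 1, 0.786 without ICRF-193 replicate 2, -19.6 without ICRF-193 replicate 3, -5.37 without DMSO replicate 1, -30.2 without DMSO replicate 2 and -3.37 without DMSO replicate 3.

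The same direction was seen over all accessible regions, in smaller size. Control-shared regions held a peak in 86.4 ± 12.4% of cases with ICRF-193 at 1 h and 90.7 ± 11.3% with DMSO (SD, n = 3 each), with pair differences of -3.11, -5.61 and -4.41 points. Regions kept in all 4 perturbed libraries differed by -0.733, -3.33 and -0.961 points. Regions lost with ICRF-193 alone differed by -13.7, -11.0 and -14.5 points, close to the 975, and regions lost after Brg1 deletion alone by -4.43, -8.53 and -6.31. The ICRF-193 list was the shorter one in each pair. With the 2 lists of each pair shortened to equal length, the 975 regions differed by -9.64, -1.74 and -12.4 points (mean -7.93), the regions lost with ICRF-193 alone by -8.24, -6.47 and -9.02, and control-shared regions by -2.23, -2.90 and -2.73. Whether these sets differ from each other was not tested.

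Over whole strength classes the 1 h difference was larger in weaker ones, so the comparison was repeated by class, where the 975 regions did not follow that order. The class means of the ICRF-193 minus DMSO difference at the 975 regions were -13.6, -10.9, -16.7 and -4.76 points from the weakest class to class 4, the last over 21 regions. Over whole classes they were -10.1, -6.59, -3.72 and -1.30. With lists of equal length the values were -7.56, -6.52, -14.8 and -1.59 points at the 975 regions and -4.88, -4.27, -2.76 and -1.02 over whole classes. These means hide opposite signs at the 975 regions in class 2 and class 4. Pair 2 gave 0.376 in class 2, and pairs 1 to 3 gave -9.52, 9.52 and -4.76 in class 4. In the DMSO libraries themselves the 975 regions were detected less often than their class, at 57.9% against 75.8% in the weakest class and 75.2% against 93.4% in the middle one.

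**Figure D3:**
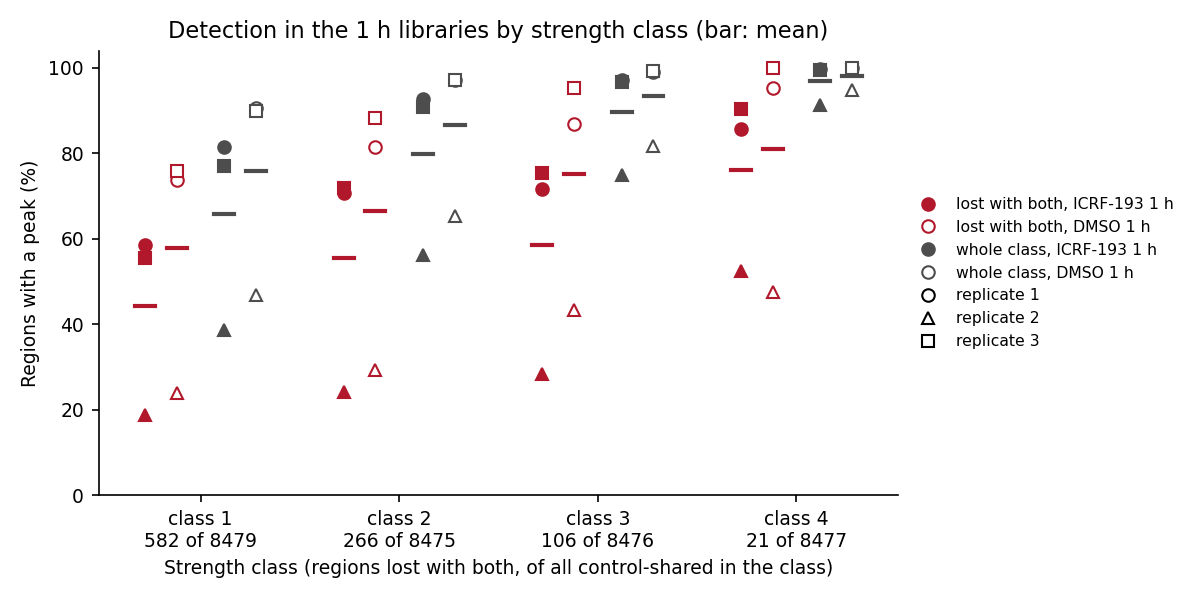
Share of regions with a peak (percent, vertical axis) in the 1 h libraries by strength class (horizontal axis, class 1 weakest, class 5 without such regions not shown), for the regions lost in both experiments (red) and the whole class (grey), with ICRF-193 filled and DMSO open. Symbols are single libraries and bars are means of 3. In the weakest class the red means are 44.3% with ICRF-193 and 57.9% with DMSO and the grey ones 65.7% and 75.8%, and both replicate 2 libraries (triangles) lie far below the others in every class.

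Loss already at 1 h, with a peak in all 3 DMSO and in no ICRF-193 library, was met by 13 of the 213 regions of the set found in every DMSO 1 h library, or 6.1%. Over all regions in every DMSO 1 h library 2.28% met it, and over control-shared ones 0.306%. These shares are not matched for strength. The opposite pattern was met by 1 of the 120 found in every ICRF-193 1 h library (0.833%), against 0.375% over all regions. Of the 29156 control-shared regions found in every ICRF-193 1 h library, 8 met it, so this pattern too was rarer there. By number of libraries, 443 of the 975 regions (45.4%) had fewer ICRF-193 than DMSO 1 h peaks, 361 (37.0%) as many and 171 (17.5%) more, and 24 (2.46%) had none at 1 h. For control-shared regions the shares were 19.4%, 71.7% and 8.93%, with 0.139% having none.

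Among the 5 strongest of these 13, 2 lay on chromosome 18, more than 100 kb apart. The regions chr18:72875176-72875677 and chr18:72722378-72722900 had mean control percentiles of 83.5 ± 16.1 and 72.6 ± 2.60 (SD, n = 4). They were missing from all ICRF-193 libraries, at 1 h and at 24 h, and from Brg1 tamoxifen, and both held peaks in all 3 DMSO 1 h libraries, with percentiles of 50.5, 10.1 and 61.5 at the first and 50.5, 10.1 and 55.8 at the second. Baf53a cells held both, the first at 81.0 and 76.1 in tamoxifen and 96.6 and 94.3 in ethanol, the second at 88.8 and 89.4 in tamoxifen and 80.8 and 91.5 in ethanol. The other 3 of the 5 were chr17:58033241-58033598 (72.8 ± 16.0), chr17:54892748-54893076 (63.1 ± 23.5) and chr11:83196438-83197144 (53.9 ± 15.8). The 1 region of the opposite pattern was chr8:119096556-119097452 (54.0 ± 30.3).

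In Baf53a-deleted cells, where the rule asked for 1 peak or more, 434 of the 975 regions (44.5%) held a peak in both tamoxifen libraries, 345 in replicate 1 alone and 196 in replicate 2 alone. Among control-shared regions 82.5% held both. The Baf53a ethanol libraries, which the rule did not use, held a peak at 89.7% and 60.9% of the 975 regions, against 79.9% and 64.6% in tamoxifen, where the rule sets a lower bound. Both ethanol libraries held 572 of the regions (58.7%), 1 held 325 and neither held 78 (8.0%); for control-shared regions both held 88.6% and neither 1.20%. All 4 Baf53a libraries held 307 of the regions (31.5%), against 77.0% of control-shared regions. In the Baf53a line too, then, the set was detected less completely than control-shared regions, in the ethanol controls as well as after deletion. Both ethanol libraries held 72.6% of regions lost after Brg1 deletion alone and 78.0% of those lost with ICRF-193 alone. By strength class, weakest to class 4, the ethanol libraries held a mean of 68.0%, 84.0%, 89.6% and 95.2% of the 975 regions. Whole classes stood at 82.35%, 91.5%, 96.0% and 98.9%.

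The regions strongest in Baf53a tamoxifen ranked among its top peaks. Region chr1:4412278-4412829 stood at percentiles 92.6 and 95.1 in tamoxifen, against 76.9 and 47.8 in ethanol. Region chr11:24850979-24851725, described above, came next. Region chr3:70267116-70267628 stood at 87.7 and 92.2 in tamoxifen, against 81.1 and 83.2 in ethanol. Region chr16:76709135-76709428 stood at 90.2 and 89.4 in tamoxifen, against 65.4 in 1 ethanol list and no peak in the other. The chromosome 18 region from 72722378 was the last of these 5. These 5 were chosen by their tamoxifen values, so tamoxifen percentiles above the ethanol ones are no sign of a change.

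Over the 8 libraries that the rule did not use, 6 at 1 h and 2 of Baf53a ethanol, the median region of the set held a peak in 5 and the median control-shared region in all 8. All 8 held 33 of the 975 regions (3.39%), against 59.0% of control-shared regions, and none of the 8 held 5 of them. These values are not matched for strength.

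The regions lay on 20 chromosomes, the autosomes and X, at 1.25% to 2.82% of each chromosome's control-shared regions. Among autosomes the share ran from 1.80% on chromosome 11 to 2.82% on chromosome 16 (39 of 1381 regions), with 2.81% on chromosome 1 (80 of 2847). Chromosome X had 13 of 1039 (1.25%), against 2.33% over the autosomes. Loss with ICRF-193 alone or together was rarer on X than on the autosomes (1.83% against 5.89%) and loss after Brg1 deletion was not (18.6% against 13.9%). X regions were also stronger, with a median strength of 82.8 against 74.4, chiefly in the wild-type lists (90.2 and 92.4 in DMSO 24 h, against 75.8 and 81.0 for autosomes) and less in the Brg1 ethanol lists (82.0 and 74.7, against 78.4 and 73.3). The X values have no test, and the part of strength in them was not tested.

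**Figure D4:**
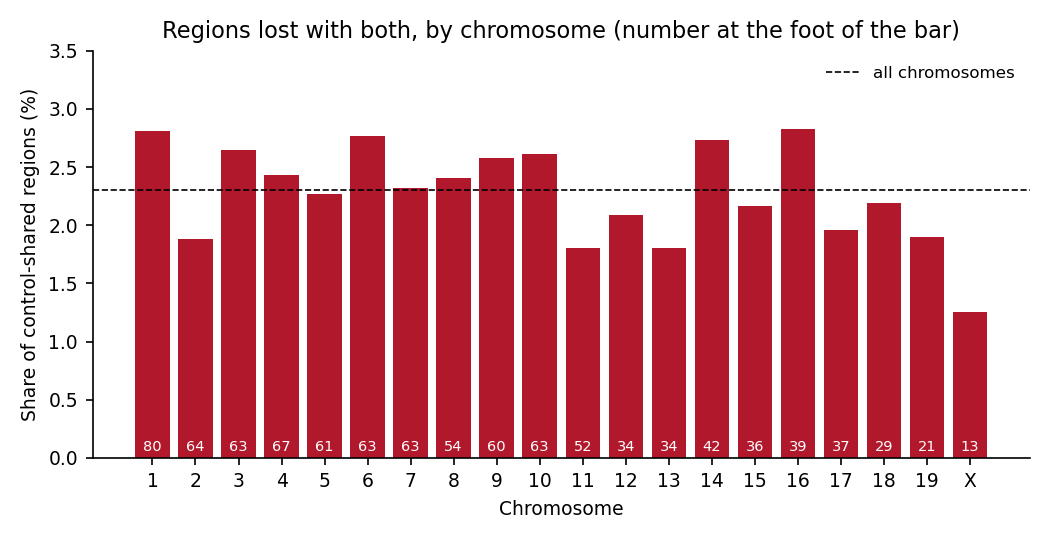
Regions lost in both experiments as a share of the control-shared regions of each chromosome (percent, vertical axis), with their number at the foot of each bar and the share over all chromosomes, 2.3%, as a dashed line. Bars run from 1.25% on X to 2.82% on chromosome 16.

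Regions of the set mostly lay far from each other, with small local groups. Such gaps depend on the number of regions in a set, and whether the set is clustered or spread beyond that was not tested. The 975 regions fell into 770 bins of 1 Mb, of which 597 held 1, 145 held 2, 24 held 3 and 4 held 4. The median gap to the next region of the set was 770 kb, 117 regions (12%) had another within 100 kb and 12 (1.23%) within 10 kb. The 12% was 23.1% without ICRF-193 24 h replicate 1, 19.2% without DMSO 24 h replicate 1, 19.6% without Brg1 tamoxifen replicate 1 and 7.94% without Baf53a tamoxifen replicate 1, with more or fewer regions in the set. Regions of the set also lay farther from other control-shared regions. The nearest lay a median of 17.5 kb away, against 11.5 kb for control-shared regions, and 11.4% had none within 100 kb, against 5.01%. Peaks of any kind within 5 kb, outside the region, were found at 39.3% and 47.8% of the 975 in DMSO 24 h. In Brg1 ethanol they were found at 44.7% and 36.8%. Kept regions had them at 43.8%, 49.6%, 43.4% and 40.6% in the same lists. The median distance to the nearest control-shared region was 16.6 kb for the 496 regions lost in both experiments and without a peak in either Baf53a tamoxifen library. It was 14.9 kb for those lost after Brg1 deletion alone and 9.88 kb for those lost with ICRF-193 alone. In the same order, 9.68%, 9.17% and 6.08% of these sets had none within 100 kb.

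Accessible neighbours within 10 kb of the set, counting its own regions, were lost after Brg1 deletion somewhat more often than accessible regions at large. Their ICRF-193 losses were near the overall share. Of 494 control-shared regions counted within 10 kb of a region of the set, 3.24% (16) belonged to it as well, of 1824 at 10 to 50 kb 3.40% (62), and of 2080 at 50 to 100 kb 2.31% (48), against 2.3% overall. Of the neighbours within 10 kb, 18.2% were lost after Brg1 deletion and 6.27% with ICRF-193, against 9.84% and 5.36% around kept regions and 14.1% and 5.79% over all control-shared regions. Most neighbours thus kept their peaks: within 10 kb, 89.3% and 80.2% of them held a peak in the ICRF-193 24 h libraries and 80.0% and 57.1% in the Brg1 tamoxifen libraries, against 90.2% and 82.7%, and 84.1% and 60.9%, over control-shared regions. The 16 neighbours that belong to the set are lost in both experiments by the rule and raise both loss shares. They are 3.24% of the neighbours within 10 kb, and are part of both the 18.2% and the 6.27%. Kept regions counted around kept regions lower the shares there. Shares without the regions of the set or the kept regions were not computed, so no excess of loss among the other neighbours is claimed. A neighbour can be counted more than once, the count of 16 within 10 kb is small, and the shares have no test.

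**Figure D5:**
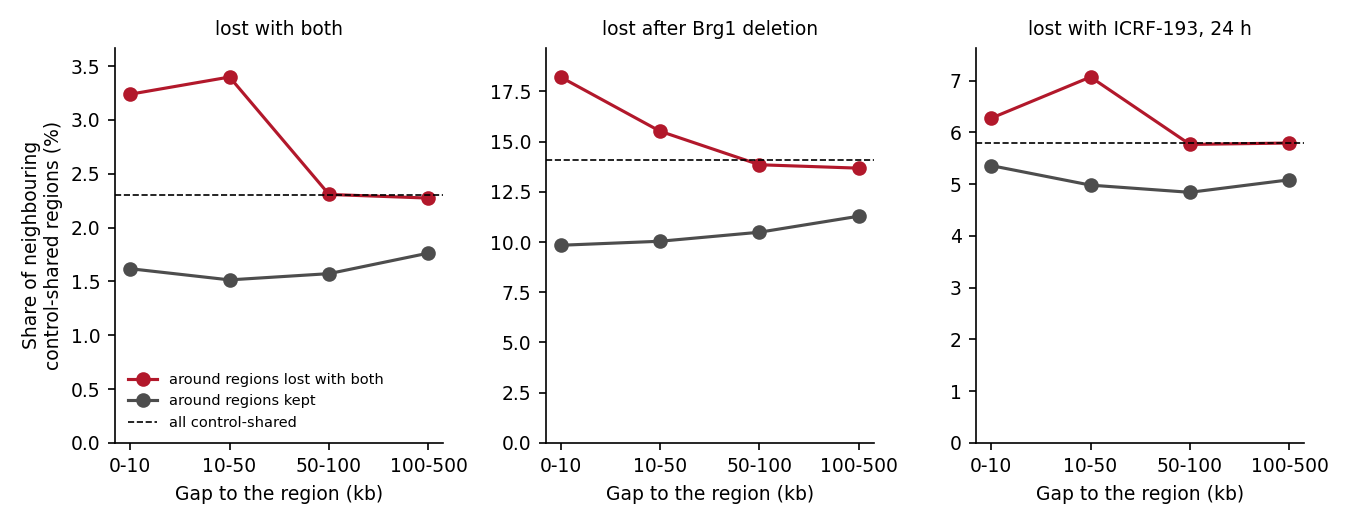
Control-shared regions around a region (horizontal axis, gap between edges in kb) that were lost in both experiments, after Brg1 deletion, or with ICRF-193 for 24 h (percent, vertical axes), around regions lost in both (red) and around kept regions (grey), with the share over all control-shared regions as a dashed line. Around the set the Brg1-lost share is 18.2% within 10 kb and 13.7% at 100 to 500 kb, and around kept regions 9.84% and 11.3%. Regions of the set, lost by the rule, and kept regions are counted among the neighbours.

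The densest megabase bins show the scale of such groups. In the bin chr2:6000001-7000000, 4 of 25 control-shared regions were in the set, and 3 of them lay within about 15 kb: 6365640 to 6366169 (mean control percentile 81.7 ± 11.8, SD, n = 4), 6370681 to 6371342 (63.6 ± 19.0) and 6380237 to 6380778 (47.5 ± 14.9), with the other at 6668769 to 6669305 (34.1 ± 24.9). Peaks in this bin numbered 42 and 41 with ICRF-193 for 24 h, against 47 and 55 with DMSO, and 36 and 28 in Brg1 tamoxifen, against 52 and 44 in ethanol. The list totals differ in the same direction in 3 of the 4 numbered pairs, ICRF-193 24 h replicate 1 being about as long as its DMSO list. In chr5:134000001-135000000, 4 of 38 control-shared regions were in the set, starting at 134162123, 134194372, 134459377 and 134921157, and the strongest was 134194372 to 134194948 (80.9 ± 11.0, SD, n = 4). In chr10:110000001-111000000, 4 of 43 were, starting at 110113516, 110209958, 110340796 and 110581502, with mean control percentiles of 23.4 to 61.6. A bin on chromosome 16 starting at 94000001, outside the naming rule, also held 4. There the perturbed lists of replicate 1 held more peaks than their controls, 81 with ICRF-193 against 61 with DMSO and 78 in Brg1 tamoxifen against 74 in ethanol.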

How the data were processed

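ATAC-seq peak lists of 18 samples were used, 1 list per sample, called by the authors sample by sample. The submitters' processing notes name mm9 as the build and list Bowtie 0.12.9, MACS2 and edgeR 3.12.1 without saying what each did. How peaks were called, whether reads were shifted for the transposase and whether blacklisted regions were removed is not given in the sources used here. Positions from the deposited lists are given 1-based. The lists carry a score per peak, assigned by the authors, for which the deposited files name no unit, and it served here only to rank peaks within a list. Lists hold no read counts, so depth is unknown, and peaks per list stand in its place.

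Peaks sharing 1 bp or more were merged with Python 3.11.15, numpy 2.4.6 and pandas 2.3.3. All 377189 merged regions were the same as those of bedtools 2.31.1, and the rule was tested on simulated lists. Exact binomial intervals at the 95% level came from scipy 1.17.1. No test was run: the lists give presence of peaks, and the rule fixes presence in the libraries of 2 of the contrasts.

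The regions, sets and comparisons were chosen with earlier results of these data known. Regions were named by fixed rules: the 10 strongest, the 3 weakest, the 3 strongest just outside, up to 5 with each all-or-none 1 h pattern, the widest and narrowest, the 5 strongest in Baf53a tamoxifen and those of the 3 densest 1 Mb bins. Replicates are passages by the study's design text. At 1 h, libraries of the same number deviated together from their group means over control regions (r = 0.140, 0.224 and 0.105 for numbers 1 to 3), so numbered pairs are given. Number 2 alone stood apart, since unmatched libraries of numbers 1 and 3 had r = 0.114 and 0.0955. Replicate 1 of each group carries another name and year in its deposited file than replicates 2 and 3, so the values of numbered pairs are also values within each such name.

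Alternatives were another merging distance, equal or stricter lists, a 50% overlap for detection, a peak in both Baf53a tamoxifen libraries, and each library left out. Lists of equal length within 1 h pairs and the omission of number 2 were added after the data were seen. The supplied gene and promoter tables follow another build and were not used.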

Additional observations from a re-analysis of the deposited data

How the results depend on the processing

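The number of regions was 971 with peaks up to 100 bp apart merged, 904 without the lowest-scoring 25% of each list and 1332 when 50% of the stretch shared by the controls had to be covered. It was 412 with 46431 top-scoring peaks in every list and 434 with a peak in both Baf53a tamoxifen libraries, and ran from 630 to 2217 with single libraries left out. Equal lists also gave a 1 h difference of -4.53 points, a median width of 501 bp, a median strength of 75.0, 4.37% of regions within 100 kb of another and 62.4% with both Baf53a ethanol peaks. They keep strong peaks only, by construction. Stricter lists gave a strength of 60.2 and an overlap (the share of Brg1 losses also lost with ICRF-193) of 19.9%, and the 50% coverage gave a width of 482 bp, 15.0% within 100 kb and an overlap of 22.8%. Requiring both Baf53a tamoxifen peaks gave 6.22% and 70.7% for the shares within 100 kb and with both ethanol peaks. The cause of these shifts was not tested. With single libraries left out the width ran from 416 to 472 bp, the strength from 48.0 to 54.4, the share within 100 kb from 7.94% to 23.1%, that with both Baf53a ethanol peaks from 48.6% to 63.2% and the overlap from 13% to 39.9%. The 1 h difference ran from -30.2 to 0.786 points, the single positive value being that without ICRF-193 1 h replicate 2. With the replicate block, the mean of the 3 numbered pairs was -13.0 points, as without it, and pair 2 alone gave -6.05. No blocked test was run, since this share over chosen regions carries no p. Unknown read depth limits every absence of a peak.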
